A study of Mus musculus with 7 samples.

Results

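Osteopontin, the product of *Spp1*, and 9 further genes of bone and of bone-resorbing cells were followed across muscle fibers of fetal mice. The 10 genes were *Spp1*, *Ibsp*, *Mmp13*, *Runx2*, *Sp7*, *Alpl*, *Phex*, *Acp5*, *Ctsk* and *Mmp9*, and all were found by symbol among the 31531 genes of the table of normalized counts. They were chosen on measured values of these same libraries, in which *Spp1* was the most abundant gene of 1 library. Their levels and fold changes are therefore given as a description, with no *P*-value printed for any of them, and the counts of calls among them are not read as evidence. All 10 had their highest value in the same dyW library, dyW1, and none separated the WT from the dyW group.

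The fetuses were at embryonic day 17.5 (E17.5) and came from crosses of heterozygous dyW mice on C57BL/6. The WT group held 4 libraries of wild-type fetuses and the dyW group held 3 libraries labelled dyW/dyW, the genotype with a disrupted *Lama2* gene, of which 1 goes against its label on *Lama2* as given below. No treatment is named in the labels. *Lama2* encodes the α2 chain of laminin, a protein of the basement membrane around muscle fibers, and its disruption in all tissues of the dyW mouse models a congenital muscular dystrophy. Fibers were freed from the muscles along the back with dispase and collagenase, kept on a strainer and lysed without any sorting of cells, so whatever else stayed on the strainer was also sequenced. The study describes the samples as independent, and whether a library held fibers of several fetuses is not given in the sources used here.

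Bone matrix is laid down by osteoblasts, whose program depends on the transcription factors RUNX2 and osterix, the product of *Sp7*. Osteopontin and bone sialoprotein, the product of *Ibsp*, are acidic phosphoproteins of that matrix which bind mineral and integrins. Tissue-nonspecific alkaline phosphatase, encoded by *Alpl*, removes pyrophosphate and so permits mineral to form, and the endopeptidase PHEX acts in phosphate balance and cleaves peptides of this protein family. Collagenase 3, encoded by *Mmp13*, is made by hypertrophic chondrocytes and osteoblasts where cartilage is replaced by bone. Osteoclasts resorb bone with cathepsin K (*Ctsk*), tartrate-resistant acid phosphatase (*Acp5*) and the gelatinase *Mmp9*. Osteopontin is also made by macrophages and by injured or regenerating muscle, where it is best known from muscular dystrophy.

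The promoters of *Spp1*, *Mmp13* and *Mmp9* are shown because these genes stand for the bone matrix, the hypertrophic cartilage and the osteoclast groups and were high in the same library. Each is the 250 bases before the start of the canonical GENCODE transcript, read from GRCm39 on the + strand. Capitals mark the RUNX core (TGTGGT, or ACCACA on the other strand) and the AP-1 motif (TGANTCA, which is its own reverse complement). The windows are chr5:104581915-104582164 for *Spp1*, chr9:7272264-7272513 for *Mmp13* and chr2:164789889-164790138 for *Mmp9*.

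Spp1 promoter: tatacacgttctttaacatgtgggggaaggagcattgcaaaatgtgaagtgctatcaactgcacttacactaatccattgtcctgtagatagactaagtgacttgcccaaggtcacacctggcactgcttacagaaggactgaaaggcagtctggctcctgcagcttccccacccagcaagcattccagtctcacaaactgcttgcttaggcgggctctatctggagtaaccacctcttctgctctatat
Mmp13 promoter: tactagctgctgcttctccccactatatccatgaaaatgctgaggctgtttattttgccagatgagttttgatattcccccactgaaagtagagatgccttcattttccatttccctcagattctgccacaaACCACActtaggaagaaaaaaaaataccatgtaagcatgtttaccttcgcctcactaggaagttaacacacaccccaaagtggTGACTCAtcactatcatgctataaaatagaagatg
Mmp9 promoter: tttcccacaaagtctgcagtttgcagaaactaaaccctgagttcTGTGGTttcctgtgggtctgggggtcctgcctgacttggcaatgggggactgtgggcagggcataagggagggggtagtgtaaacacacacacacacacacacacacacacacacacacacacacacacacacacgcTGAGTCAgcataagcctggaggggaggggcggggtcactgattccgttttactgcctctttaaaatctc

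The *Mmp13* window held a RUNX core that began 118 bases before the start and an AP-1 motif at 35 bases. The *Mmp9* window held a RUNX core at 206 bases and an AP-1 motif at 69 bases. The *Spp1* window held neither in these letters, and neither did the windows of the other 7 genes. The RUNX core was thus present in 2 of 10 windows and in 13.0% of the windows of 21770 protein-coding genes, and AP-1 was present in 2 of 10 against 6.17%. A GC box (GGGCGG, or CCGCCC on the other strand) was found at *Mmp9* and *Runx2*, 2 of 10 against 36.3%. The letters TATAAA, or TTTATA, were found at *Mmp13*, 1 of 10 against 11.9%. These are matches of letters and are a description.

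Several libraries stood apart before any bone gene was considered. *Lama2* was at 90.6, 111, 105 and 107 normalized counts in WT1 to WT4, at 4.29 in dyW1, at 6.07 in dyW2 and at 140 in the library labelled dyW3, which on this gene goes against its label. The sum of 10 muscle fiber markers was between 2644 and 79781 in the WT libraries, 10529 in dyW2, 6387 in the library labelled dyW3 and 58.6 in dyW1. *Acta1*, the actin of skeletal muscle, was at 4.09 in dyW1 against 1807 or more in the other libraries, and *Mylpf* and *Myl1*, the muscle light chains, were at 11.9 and 4.09 there. *Ckm*, *Des*, *Myh3* and *Myh8*, named after their values were seen, had no read in it. dyW1 thus nearly lacked the markers of the labelled cell type. WT1 held 415687 normalized counts of the cartilage collagen *Col2a1*, more than any other library. Between 470804 and 18297106 reads per library were counted on genes, and 1 read was worth 2.05 to 5.33 normalized counts in the WT libraries but 0.0974 to 0.488 in the dyW libraries. The libraries were amplified without molecular identifiers, so intervals and limits below cover counting error only. In bulk RNA, more cells of a type and more of a gene's RNA in each cell cannot be told apart.

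The bone matrix genes showed the widest range. *Spp1* (chromosome 5, 104582165–104589235, + strand of GRCm39) was at 10.7, 21.6, 16501 and 3.15 normalized counts in WT1 to WT4. In dyW1, dyW2 and the library labelled dyW3 it was at 74905, 0.253 and 0.488. It was therefore high in 1 library of each genotype and low in the other 5. In dyW1 it was the most abundant of all genes and took 5.35% of the counted reads (95% Wilson interval 5.34 to 5.36%). In WT3 it ranked 19 and took 0.362% (0.354 to 0.370%). The remaining libraries held between 1 and 8 reads of the gene. The group means were 4134 ± 8244 in WT (SD, n = 4) and 24969 ± 43246 in dyW (SD, n = 3), each SD larger than its mean. The fitted log2 fold change of dyW over WT was −0.33 (SE 4.12), so the mean of the log values and the mean of the counts, which dyW1 carries, pointed in opposite directions.

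*Ibsp*, which lies near *Spp1* on chromosome 5, was at 5.33, 18.9, 113 and 3.15 normalized counts in WT1 to WT4. It was at 8191 in dyW1 and had no read in dyW2 or in the library labelled dyW3. Like *Spp1* it was highest in dyW1 and second in WT3, but WT3 rested on 55 reads and dyW1 on 84057. The means were 35.0 ± 52.3 in WT and 2730 ± 4729 in dyW, with a log2 fold change of 0.37 (SE 2.95).

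**Figure D1:**
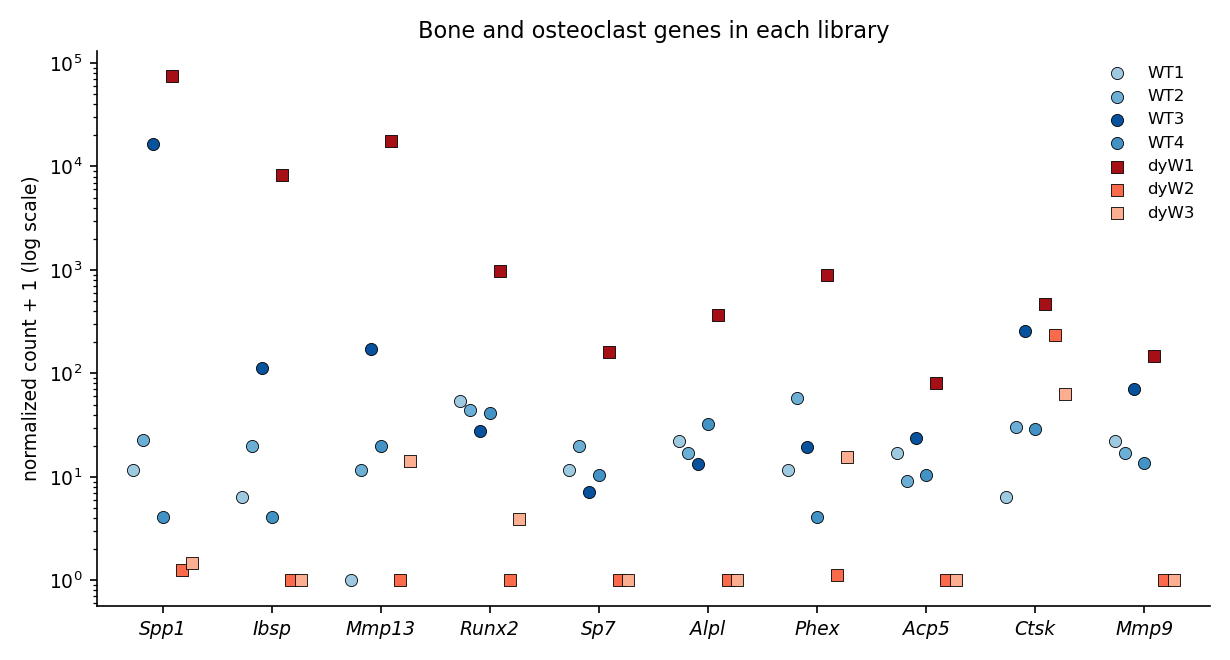
Normalized count plus 1 (log scale) of each of the 10 genes in every library, with WT libraries as blue circles and dyW libraries as red squares. The dark red square of dyW1 is the highest point for each gene, at 74905 for Spp1, and dark blue WT3 is second for 6 genes.

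*Mmp13*, the collagenase of hypertrophic cartilage, followed the same order at the top. It had no read in WT1 and was at 10.8, 170 and 18.9 normalized counts in WT2, WT3 and WT4. In dyW1 it was at 17612, the third most abundant gene of the library, against 0 in dyW2 and 13.2 in the library labelled dyW3. The means were 49.98 ± 80.6 in WT and 5875 ± 10165 in dyW, with a log2 fold change of 2.15 (SE 3.03).

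The osteoblast transcription factors were high in dyW1 alone. *Runx2* was at 53.3, 43.1, 26.7 and 40.9 in the WT libraries, the narrowest WT spread of the 10 genes relative to its mean. It was at 985 in dyW1, at 0 in dyW2 and at 2.93 in the library labelled dyW3, with a log2 fold change of −1.38 (SE 2.01). *Runx2* spans chromosome 17, 44806874–45125684, on the − strand and is overlapped by 5 annotated genes, among them *Supt3* on the other strand. The strand setting of the counting is not given in the sources used here, so reads of these genes may be shared. *Sp7* was at 10.7, 18.9, 6.15 and 9.44 in WT, at 159 in dyW1 and without a read in the other dyW libraries, with a log2 fold change of −1.08 (SE 1.68). WT3 held 13 reads of *Runx2* and 3 of *Sp7*, so the library that stood out for *Spp1* had the lowest WT value of both factors.

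The mineralization enzymes behaved likewise. *Alpl* was at 21.3, 16.2, 12.3 and 31.5 in WT, at 365 in dyW1 and without a read in dyW2 and the library labelled dyW3 (log2 fold change −1.497, SE 1.91). *Phex*, on the X chromosome, was at 10.7, 56.6, 18.5 and 3.15 in WT and at 898, 0.126 and 14.7 in the dyW libraries in the order dyW1, dyW2 and labelled dyW3 (log2 fold change 0.72, SE 1.99). For both genes WT3 lay within the range of the other WT libraries or below it, and dyW1 was 11.6-fold above the next library for *Alpl* and 15.9-fold for *Phex*.

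Of the osteoclast genes, *Ctsk* alone had reads in all 3 dyW libraries. It was at 5.33, 29.7, 258 and 28.3 normalized counts in WT1 to WT4 and at 463 in dyW1, 237 in dyW2 and 63.0 in the library labelled dyW3. Every dyW library exceeded 3 of the 4 WT libraries, and WT3 alone made the groups overlap. The means were 80.4 ± 119 in WT and 254 ± 201 in dyW, with a log2 fold change of 2.46 (SE 1.23). Without WT3 the WT mean was 21.1 ± 13.7 (SD, n = 3) and the log2 fold change 3.42 (SE 1.02). The summed fibroblast and tendon markers were at 22227 in dyW2 and 14849 in the library labelled dyW3, above the 3993 to 10302 of the WT libraries, and at 5780 in dyW1. As a share of the library total they took 0.413% in dyW1, 0.961% in dyW2 and 0.830% in the library labelled dyW3, above the 0.0720 to 0.298% of WT. The part of such cells in the level of *Ctsk* was not tested.

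*Acp5* was at 16.0, 8.09, 22.6 and 9.44 in WT, at 80.5 in dyW1 and without a read in the other dyW libraries (log2 fold change −1.69, SE 1.502). *Mmp9* was at 21.3, 16.2, 69.7 and 12.6 in WT, at 145 in dyW1 and again without a read in the others (log2 fold change −2.23, SE 1.70). The gap between dyW1 and WT3 was small for the osteoclast genes, 3.57-fold for *Acp5*, 2.08-fold for *Mmp9* and 1.79-fold for *Ctsk*. It was 4.54-fold for *Spp1* and at least 25.9-fold for the remaining 6 genes, with *Mmp13* at 103-fold.

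The comparison of the genotypes asks which genes depend on *Lama2* in fetal fibers. It was made with limma over 25791 genes whose mean over the libraries was 5 normalized counts or more. A gene was called where its adjusted *P*-value was below 0.01 and its log2 fold change was over 1.5 in either direction. Of the 10 genes, 0 were called lower and 0 higher by limma, 0 had an unadjusted *P*-value under 0.05, and limma voom on the recovered reads also called 0. Of all tested genes, 18.7% were called lower and 0.0659% higher. That share depended on single libraries and settings. The 4830 genes called lower became 4606 without WT1, 5243 without WT3, 2090 without dyW1 and 6698 without the library labelled dyW3, but 0 without WT2, WT4 or dyW2, where the median log2 fold change of all tested genes was still −1.78, −1.79 and −1.77. With a pseudocount of 0.1 there were 5169 and by voom 6079, against 0 with a pseudocount of 10, the same total or a mean of at least 50, 1 with the replicate block and 2 with quantile normalization. The WT and dyW values overlapped for all 10 genes, whereas every WT library was above every dyW library for 31.5% of tested genes and the reverse held for 3.28%. All 10 were highest in dyW1, as were 9.56% of tested genes. For *Spp1*, *Runx2*, *Sp7*, *Alpl*, *Acp5* and *Mmp9* the log2 fold change was below 0 although the mean count was higher in dyW. These means were 329 ± 568 against 41.0 ± 11.0 in WT for *Runx2*, 53.0 ± 91.9 against 11.3 ± 5.41 for *Sp7*, 122 ± 210 against 20.3 ± 8.30 for *Alpl*, 26.8 ± 46.5 against 14.0 ± 6.66 for *Acp5* and 48.4 ± 83.9 against 30.0 ± 26.8 for *Mmp9*. The median log2 fold change of the 10 genes was −0.70, beside −1.99 over all tested genes. Since the values of these libraries chose the genes, nothing is read from these counts.

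**Figure D2:**
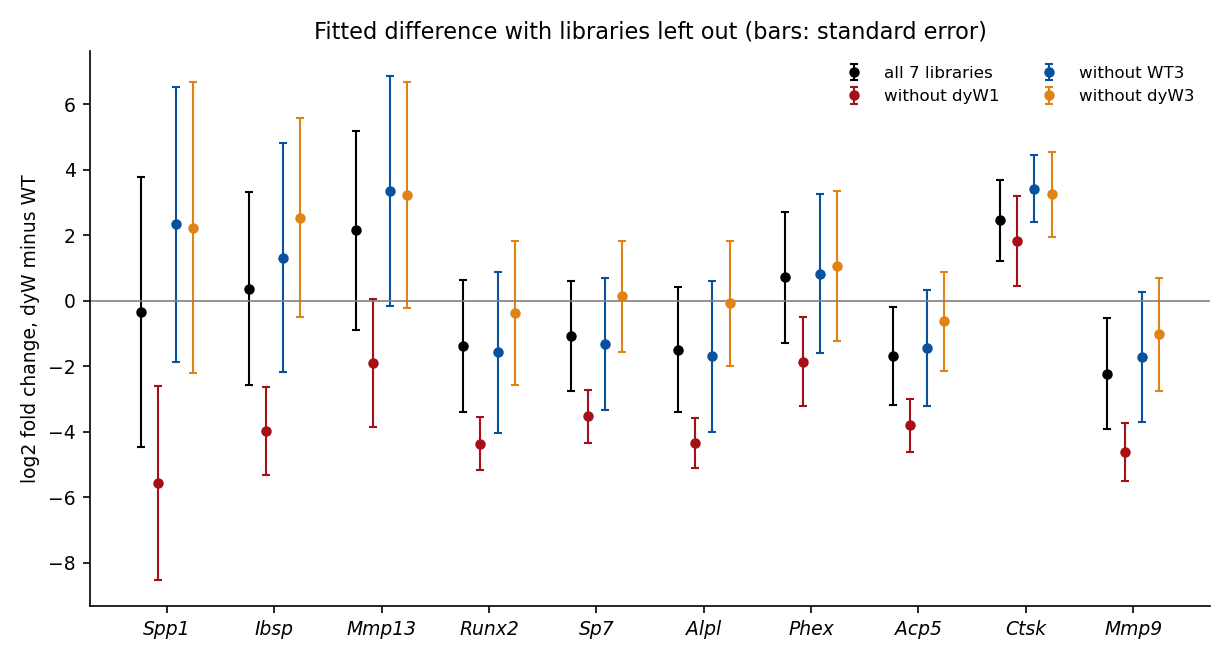
Fitted log2 fold change of dyW over WT for each gene, with bars of 1 standard error, from all 7 libraries and with dyW1, WT3 or the library labelled dyW3 left out. Without dyW1 (red) the value is below 0 for 9 genes, and Ctsk lies above 0 in each fit.

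The direction of most of the 10 genes depended on single libraries. Without dyW1 the log2 fold change of *Spp1* was −5.58 (SE 2.96), without WT3 it was 2.33 (SE 4.20) and without the library labelled dyW3 it was 2.23 (SE 4.44). Without dyW1, *Alpl* (−4.33, SE 0.759) and *Runx2* (−4.36, SE 0.809) were called lower, 2 of 10 beside 7.76% of tested genes called lower and 0.0111% called higher in that fit. As all 10 genes were highest in dyW1, leaving it out lowers the dyW side of each, and nothing is read from this count. Also without dyW1, 7 of the 10 genes were above dyW2 and the library labelled dyW3 in every WT library, beside 39% of tested genes. The median of the 10 genes was then −3.88, and that of all tested genes was −2.10. *Ctsk* was at 1.82 (SE 1.38) without dyW1, and it was above 0 in each of the 17 alternative settings.

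Where a gene had no read in dyW2 and in the library labelled dyW3, its fitted fold change depends on the added count of 1. A bound can be given for the dyW side. A count of 0 allows up to 3 reads, which is a mean of 0.922 normalized counts over this pair of libraries. Against that floor the observed WT mean was 38.0-fold higher for *Ibsp*, 32.5-fold for *Mmp9*, 22.0-fold for *Alpl*, 15.2-fold for *Acp5* and 12.2-fold for *Sp7*. The WT means were taken as measured, so these ratios do not cover the counting error of the WT reads and are not lower bounds. These ratios rest on 64, 48, 26, 20 and 15 WT reads over 4 libraries. WT3 gave 55 of the *Ibsp* reads and 34 of the *Mmp9* reads, and without it the observed WT mean was 9.89-fold higher for *Ibsp* and 18.1-fold for *Mmp9*.

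Few reads also lay behind the low WT values, and their level was set beside that of genes not expected in muscle. In WT1, WT2 and WT4 the 10 genes had between 0 and 21 reads, with a median of 4. The median of 1207 odorant and vomeronasal receptor genes, which serve smell, was 0.632, 2.48, 1.76 and 1.85 reads per kb of exon in the 4 WT libraries in order. The library labelled dyW3 had a median of 1.07, and dyW1 and dyW2 had a median of 0. All 30 values of the 10 genes in WT1, WT2 and WT4 were under 2 times the receptor level per length, and 18 were under it. In WT3, *Spp1* was at 1604 times that level, *Ctsk* at 24.3, *Mmp13* at 17.6, *Ibsp* at 15.1 and *Mmp9* at 5.20 times, whereas *Acp5* was at 1.42 and *Runx2*, *Phex*, *Alpl* and *Sp7* were below 1. In the library labelled dyW3, *Ctsk* was at 41.0, *Mmp13* at 9.45 and *Phex* at 4.46 times its receptor level. The WT values of *Runx2*, *Sp7* and *Alpl*, which exceeded those of dyW2, were thus near the level of receptor genes, and the part of that level in the differences was not tested.

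**Figure D3:**
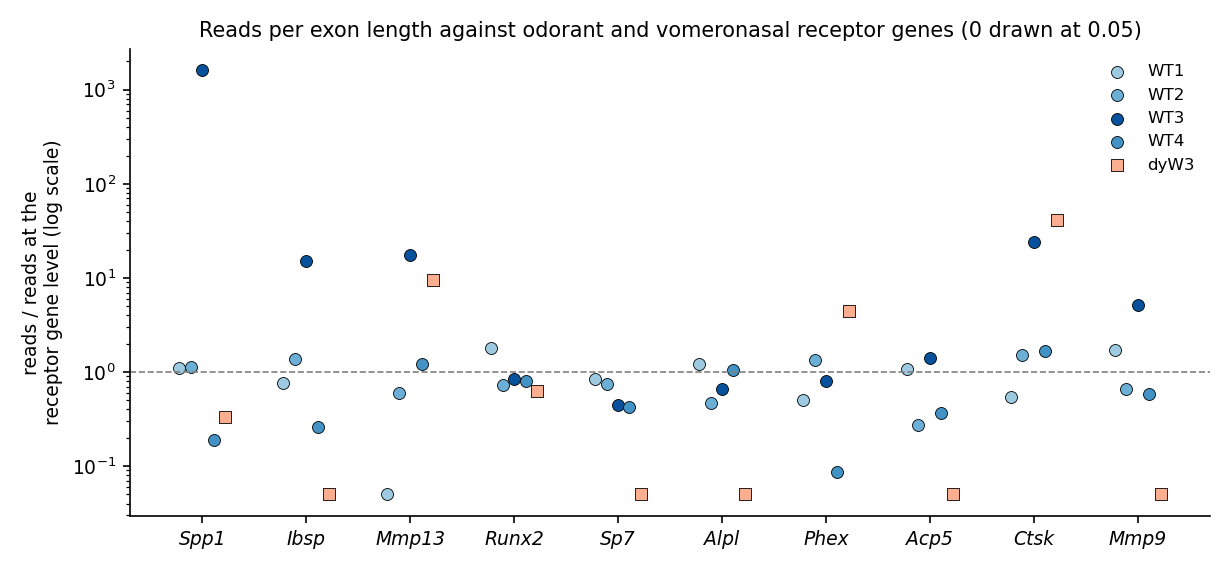
Reads per exon length of each gene divided by the median of 1207 odorant and vomeronasal receptor genes of the same library (log scale, 0 drawn at 0.05), in the 5 libraries where that median is above 0. WT1, WT2 and WT4 stay under 2 for each gene, and WT3 reaches 1604 for Spp1.

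The 2 libraries rich in *Spp1* did not hold the same mixture of bone genes. For each read of *Ibsp* there were 146 reads of *Spp1* in WT3 (95% interval 112 to 191) and 9.15 in dyW1 (9.08 to 9.21). For *Mmp13* the ratio was 96.9 (78.1 to 120) in WT3 and 4.25 (4.23 to 4.27) in dyW1. For *Dmp1*, a matrix protein of osteocytes, it was 804 (437 to 1481) and 29.9 (29.6 to 30.3). *Spp1* thus exceeded these 3 genes by far more in WT3, which did not hold for every matrix gene, and *Col1a2* and *Bglap* are added here after their values were seen. With *Col1a1* the ratio was 18.6 (16.9 to 20.5) in WT3 and 8.85 (8.78 to 8.91) in dyW1, and with *Col1a2* 6.39 (6.03 to 6.79) and 6.22 (6.18 to 6.26), whose intervals overlap. It ran the other way for *Sparc*, at 1.41 (1.37 to 1.46) and 21.7 (21.5 to 22.0), and for *Bglap*, at 1149 (556 to 2373) and 5452 (4623 to 6429). It also ran the other way for *Col10a1*, the collagen of hypertrophic chondrocytes, with 3.78 *Spp1* reads per *Col10a1* read in WT3 (3.61 to 3.97) and 235 in dyW1 (227 to 243). *Col10a1* itself was at 0, 13.5, 4363 and 18.9 normalized counts in WT1 to WT4, at 319 in dyW1 and without a read in the other dyW libraries. For the osteoclast genes the ratio was higher in dyW1 or did not differ beyond its interval. It was 63.8 (53.6 to 76.1) and 162 (157 to 167) for *Ctsk*, 237 (169 to 331) and 516 (490 to 542) for *Mmp9*, and 731 (408 to 1310) and 931 (869 to 996) for *Acp5*, whose intervals overlap. These intervals compare a pair of libraries, not the genotypes.

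**Figure D4:**
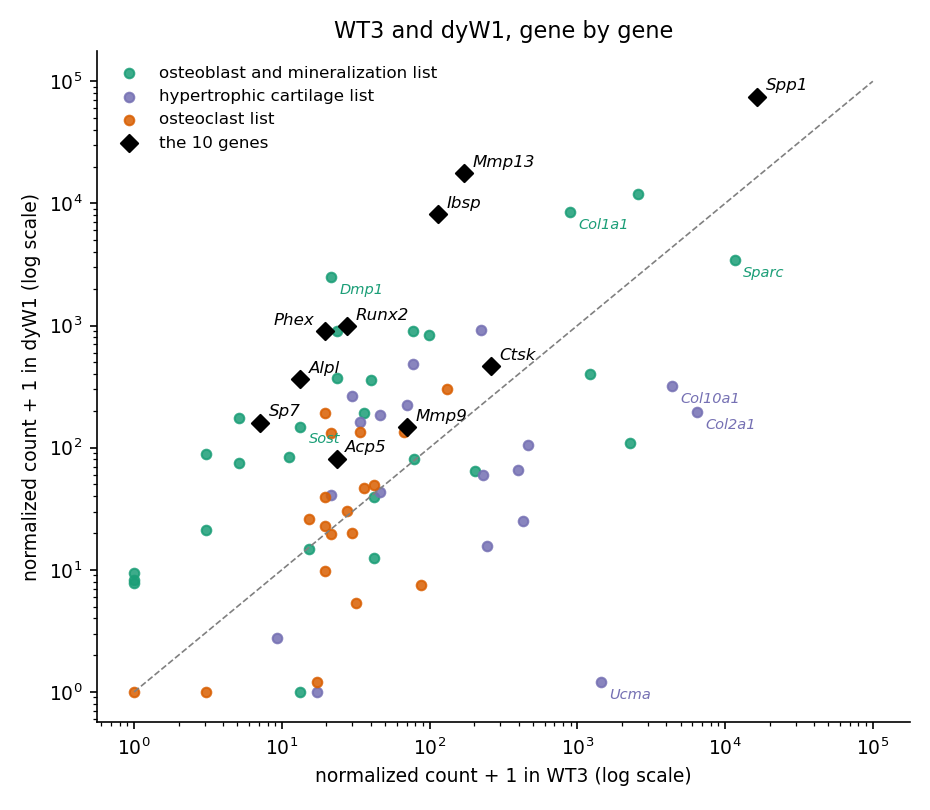
Normalized count plus 1 in WT3 against dyW1 (both log scale) for the 10 genes (black diamonds) and for the lists of osteoblast, hypertrophic cartilage and osteoclast genes (colored points), with the line of equal values dashed. Mmp13 and Ibsp lie far above the line, and Col10a1, Col2a1 and Ucma lie below it.

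*Spp1* and *Ibsp* belong to a cluster of matrix phosphoprotein genes on chromosome 5, all on the + strand, in the order *Dspp* (104318578–104327993), *Dmp1* (104345340–104361974), *Ibsp* (104447037–104459338), *Mepe* (104473195–104486477) and *Spp1*. *Dmp1* was at 10.7, 16.2, 20.5 and 9.44 normalized counts in WT, at 2504 in dyW1 and at 0 in the other dyW libraries. *Mepe*, made by osteocytes, was at 0 to 6.29 in WT, at 88.1 in dyW1 and at 0 in the other dyW libraries. *Dspp*, whose product forms dentin, was at 53.3, 67.4, 12.3 and 113 in WT, at 0 in dyW1 and dyW2 and at 27.8 in the library labelled dyW3. In dyW1, 4 of the 5 genes of the cluster were thus present and the tooth gene was not. *Dmp1*, *Mepe* and *Dspp* were named after their values were seen.

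The other osteoblast and mineralization genes were taken from a list of 29 genes, of which 27 were in the file and 24 were tested. By limma, 0 were called lower and 0 higher, beside 18.7% and 0.0659% of all tested genes, and 17 of the 27 were highest in dyW1, beside 9.56% of all tested genes. The 3 most abundant per kb were *Sparc*, *Mgp* and *Col1a1*, which connective tissue also makes. *Col1a1*, a chain of type I collagen, was at 341, 2362, 886 and 1800 in WT and at 8467, 1987 and 2531 in dyW (limma log2 fold change 1.71, adjusted *P*-value 0.114). *Sparc*, osteonectin, was highest in WT1 at 47815 and lay between 2166 and 3447 in the dyW libraries (−1.65, adjusted *P*-value 0.183). The inhibitor of calcification *Mgp* was at 40.5 to 1562 in WT and at 42.0 to 403 in dyW (−1.21, adjusted *P*-value 0.541). The next 3 genes, of late osteoblasts and osteocytes, were named after their values were seen. The osteocyte inhibitor *Sost* was at 147 in dyW1 against at most 12.3 elsewhere, and the osteoclast-inducing ligand *Tnfsf11* was at 174 against at most 8.09. *Bglap*, which encodes osteocalcin, was at 13.7 in dyW1 and at 14.4 in WT3. Without dyW1, 4 genes of the list were called lower by limma, beside 7.76% of all tested genes, namely *Dlx3*, *Smpd3*, *Slc20a2* and *Vdr*.

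The hypertrophic cartilage list held 18 genes, among them genes of cartilage at large such as *Col2a1*, and 16 were tested. By limma 1 was called lower, *Ucma*, a secreted cartilage protein, which was at 3236, 21.6, 1438 and 62.9 in WT and at 0.195, 0 and 1.95 in dyW (log2 fold change −7.56, adjusted *P*-value 0.00852). Of all tested genes 18.7% were called lower. In the list 0 were called higher, 7 of the 18 were highest in dyW1 beside 9.56% of all tested genes, and 9 were highest in WT1 beside 22.3%. *Col2a1* was at 415687, 40.5, 6462 and 2328 in WT and at 195, 0.126 and 9.77 in dyW (−8.23, adjusted *P*-value 0.0549). The WT library with most cartilage RNA, WT1, thus held 2 reads of *Spp1*, 1 of *Ibsp* and 0 of *Mmp13*. The call of *Ucma* was lost whichever library was left out, with adjusted *P*-values of 0.01004 to 0.0337 by limma, and it was 0.0252 without dyW1, where 0 genes of the list were called.

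The osteoclast list held 20 genes, with 19 in the file and 18 tested, of which limma called 0 lower and 0 higher, beside 18.7% and 0.0659% of all tested genes, and 6 were highest in dyW1, beside 9.56%. Its summed level was 624 to 887 in the WT libraries, 1156 in dyW1, 171 in dyW2 and 660 in the library labelled dyW3. As a share of the library total it was 0.0137 to 0.0316% in WT, 0.0826% in dyW1, 0.00741% in dyW2 and 0.0369% in the library labelled dyW3, which on that scale lay above every WT library. The most abundant per kb were *Mmp14*, a membrane collagenase activator, *Atp6v0d2*, a subunit of the osteoclast proton pump, and *Clcn7*, its chloride exchanger. *Atp6v0d2* was at 32.0, 43.1, 20.5 and 15.7 in WT, at 130 in dyW1 and at 0 in the other dyW libraries (log2 fold change −2.40, adjusted *P*-value 0.287 by limma). *Mmp14* was at 80.0 to 145 in WT and at 303, 18.0 and 171 in dyW (−0.27, adjusted *P*-value 0.847). *Clcn7* was at 42.7 to 120 in WT and at 6.53, 5.82 and 130 in dyW (−1.89, adjusted *P*-value 0.213). dyW1 was thus the highest library for some osteoclast genes and not for others. Without dyW1, 2 genes of the list, *Atp6v0d2* and *Plekhm1*, were called lower by limma, beside 7.76% of all tested genes.

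Osteopontin acts through integrins and CD44 and is cut by thrombin and matrix metalloproteinases, and 15 genes of this list were tested. By limma 1 was called lower, *F2*, which encodes prothrombin, at 42.7, 45.8, 20.5 and 66.1 in WT and at 3.41, 0 and 0 in dyW (log2 fold change −4.66, adjusted *P*-value 0.00446). The call was lost without WT1 (adjusted *P*-value 0.0112), WT2 (0.0172), WT4 (0.0175) or dyW2 (0.0175), and it was kept without dyW1, WT3 or the library labelled dyW3. *F2* is a liver gene, and its WT values rest on 8 to 21 reads a library. *Cd44*, a receptor for osteopontin and hyaluronan, was at 21.3, 80.9, 71.8 and 78.7 in WT and at 186, 202 and 328 in dyW. Every dyW library was above every WT library, but the gene was not called (2.02, adjusted *P*-value 0.0451 by limma, above the threshold of 0.01). *Itgb1*, the β1 integrin chain, was at 151 to 496 in WT and at 1024, 960 and 449 in dyW (1.54, adjusted *P*-value 0.0676), and *Itga5*, its fibronectin-binding partner, was at 69.7 to 126 in WT and at 186, 8.98 and 98.6 in dyW (−0.63, adjusted *P*-value 0.649). These osteopontin receptors were thus present in libraries with and without *Spp1*. Over the 4 lists, 73 genes were tested, 2 were called lower beside 18.7% of all tested genes and 0 higher beside 0.0659%, and the median log2 fold change was −1.502. Of the 73, 18 had an unadjusted *P*-value under 0.05 by limma, a count given without the share of all tested genes, so nothing is read from it. With dyW1 left out 7 were called lower, beside 7.76% of all tested genes.

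**Figure D5:**
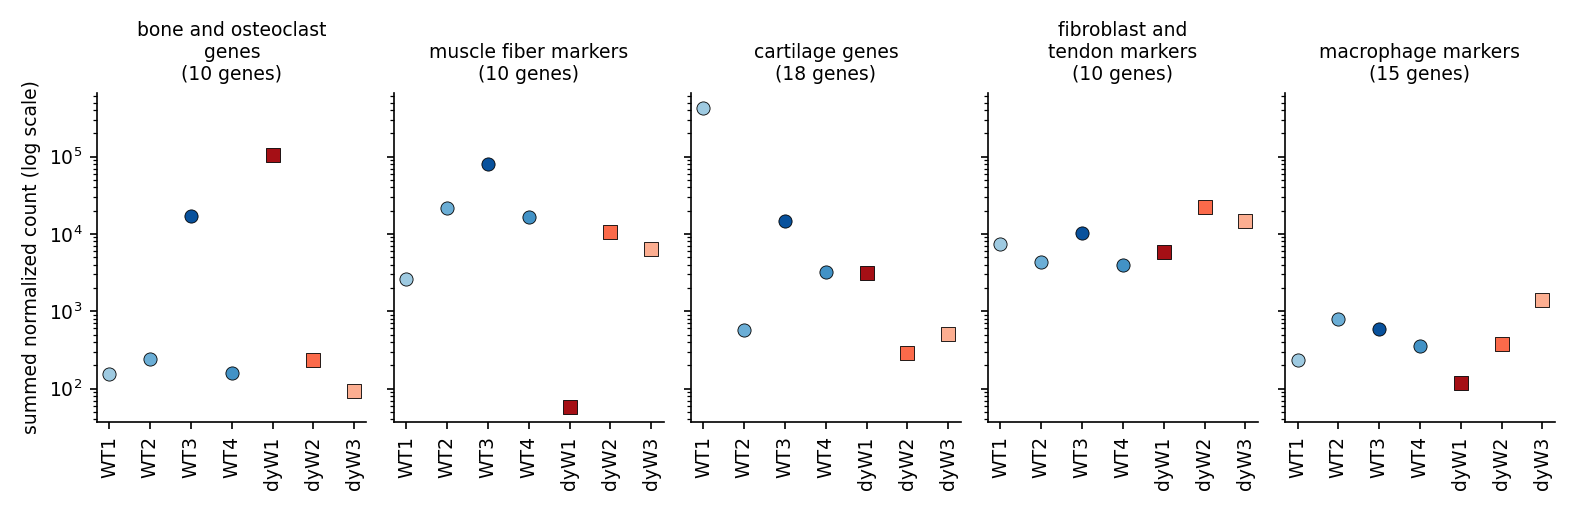
Summed normalized counts (log scale) of the 10 bone and osteoclast genes and of 4 lists in each library, with WT libraries as blue circles and dyW libraries as red squares. dyW1 has the highest sum of the 10 genes (103802) and the lowest of the muscle fiber markers (58.6), and WT1 has the highest cartilage sum (429255).

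Markers of other cells that can make osteopontin were read in the same libraries. Summed over the 10 bone and osteoclast genes, dyW1 held 103802 normalized counts, 7.42% of its total, WT3 held 17198 and the remaining libraries 94.3 to 240. The summed macrophage markers were at 235 to 785 in WT, at 117 in dyW1, at 383 in dyW2 and at 1421 in the library labelled dyW3. In dyW1, 11 of the 15 macrophage markers were at 0, as were 40.4% of all tested genes. They included the defining genes *Ptprc*, *Adgre1* and *C1qa*, which were named after their values were seen. Of the 3 most abundant per kb, *Lyz2* was at 0 in dyW1, but *Tyrobp* was at 50.4, above the 5.33 to 48.5 of the WT libraries and below the 147 of the library labelled dyW3. *Cd68* was at 39.2 in dyW1, the highest value of the 7 libraries, against 8.09 to 34.6 in WT. On the deposited scaling the library with most *Spp1* had the lowest macrophage sum, but as a share of the library total dyW1 (0.00835%) was above WT4 (0.00647%). The library with most macrophage RNA held 1 read of *Spp1*. Of the macrophage markers 14 were tested. By limma 1 was called lower, *Cx3cr1* (log2 fold change −4.17, adjusted *P*-value 0.00484), and 0 higher, beside 18.7% and 0.0659% of all tested genes. The neutrophil markers, 6 of them tested, summed to 51.3 to 94.4 in WT, to 10.6 in dyW1, to 8.98 in dyW2 and to 49.8 in the library labelled dyW3. By limma 2 of the 6 were called lower, *Ngp* and *Ltf*, beside 18.7% of all tested genes, and nothing is read from so few genes. The calls of *Cx3cr1*, *Ngp* and *Ltf* were each lost without WT2, dyW1 or dyW2, and *Ngp* had a log2 fold change of 0.28 under quantile normalization. The fibroblast and tendon markers, the myogenic cell markers and the muscle fiber markers had 0 called genes of 10, 6 and 10 by limma, with 4, 0 and 2 at an unadjusted *P*-value under 0.05. The muscle fiber sum was highest in WT3 (79781), so the pair of libraries with most *Spp1* had the most and the least muscle fiber RNA of all 7.

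Genes whose pattern was most like that of *Spp1* were ranked by Pearson's r of log2(normalized count + 1) over the 7 libraries among 6110 genes with a mean of at least 50. The values are a description, since the points share their libraries and only dyW1 and WT3 held more than 8 reads of *Spp1*. *Ibsp* came first (r = 0.95) and *Col10a1* second (0.89), followed by *Myc*, *Ndel1*, *Skap2*, *Ralb*, *Steap4*, *Ppp1r15a*, *Ppp2r1a* and *Paf1*, at 0.87 to 0.89. *Steap4*, a metalloreductase, was at 10.7 to 47.2 in WT, at 1526 in dyW1, at 1.77 in dyW2 and at 0 in the library labelled dyW3. *Ppp1r15a*, a stress-induced phosphatase subunit, was at 558 in WT3 and 343 in dyW1 against 44.0 to 140 elsewhere. *Myc* was at 96.4 in WT3 and 156 in dyW1 against 24.4 to 74.6 elsewhere. Among the 10 genes themselves, *Mmp13* and *Mmp9* had an r of 0.86 with *Spp1*, *Acp5* 0.83, *Phex* 0.76, *Runx2* 0.73, *Sp7* 0.72, *Alpl* 0.71 and *Ctsk* 0.57.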

How the data were processed

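RNA was measured in muscle fibers of E17.5 fetuses in 4 WT and 3 dyW libraries made with SMART-seq2, and groups follow the genotypes in the labels. The authors used Cutadapt for trimming, RNA STAR for alignment to GRCm39 and FeatureCounts for counting uniquely mapped reads per gene, and deposited normalized counts from DESeq2, which are read counts divided by 1 size factor per library. Strand setting, versions and annotation release are not given in the sources used here. A deposited table of the authors' fold changes and *P*-values was not used.

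Within each library 100% of values were whole multiples of the value of 1 read (tolerance 0.05), so reads were recovered by division. Library totals were 470804 to 18297106 reads, and 3 reads were taken as the limit a count of 0 allows. Log2(normalized count + 1) of genes with a mean of at least 5 was compared with limma 3.58.1 (lmFit, eBayes with trend, R 4.3.3) and Benjamini-Hochberg adjustment over 25791 genes. The fold changes are on this log2 scale and understate the change of low genes. Coordinates and exon lengths came from GENCODE mouse release 39, which held 99.2% of the identifiers. Promoters were read from GRCm39. Intervals of ratios are 95% Wilson intervals of the share of *Spp1* in the reads of both genes, turned into ratios. Tables were made in Python 3.11.15 (pandas 2.3.3, numpy 2.4.6, scipy 1.17.1) and plots in matplotlib 3.10.9, and the fit was tested on simulated data.

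The 10 genes and the 9 lists were chosen with earlier results of these data known. The rule for named genes took the 10 genes, *Lama2*, the called and the 3 most abundant genes per kb of each list, and the 10 most like *Spp1*. Of the neutrophil, fibroblast and myogenic lists only sums or counts and called genes are given, and genes outside the rule are marked as chosen after their values were seen. The libraries left out individually for the 10 genes, other pseudocounts, filters and scalings were the alternatives, and voom and the fits without 2 libraries were chosen after seeing the data. The list genes *Msx2*, *Fgf23*, *Oscar*, *Mmp7*, *S100a9*, *Mpo* and *Retnlg* were not analysed here. The values of 1 further list gene are not reported here.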

Additional observations from a re-analysis of the deposited data

Results flagged for a closer look

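Within the 4 WT libraries, 91 values were examined for a library far from the other 3 by Dixon's criterion at the 95% level. Such a library was found for 17 values. The criterion marks about 1 in 20 groups by chance, a rate that does not apply here, since the 10 genes and those most like *Spp1* were chosen on these libraries and the genes that no rule named were chosen after their values were seen. WT3 stood above the other WT libraries for *Spp1* (16501 normalized counts), *Ibsp* (113), *Mmp13* (170), *Ctsk* (258) and *Mmp9* (69.7), 5 of the 10 bone and osteoclast genes. It stood equally apart for *Col10a1* (4363), for the chondrocyte channel gene *Panx3* (75.9), for *Acta1* (52989) and for *Ppp1r15a* (558). WT1 stood above the others for *Col2a1* (415687), for the cartilage proteoglycan *Acan* (2969) and for the phosphate transporter *Slc20a2* (64.0). It also did for the summed hypertrophic cartilage list (429255), a sum that was mostly *Col2a1*. *Col10a1* and *Mmp13*, the genes of hypertrophic chondrocytes, had no read in WT1. WT1 stood below the others for *Cd44* (21.3), for *Smpd3* (26.7) and for the calcitonin receptor *Calcr* (0). These values are 4, 5 and 0 reads of WT1, where 1 read was worth 5.33 normalized counts, so a few reads would close such gaps. WT4 alone held *Bglap2* (15.7, from 5 reads), where the other WT libraries had no read. Leaving out WT3 turned the log2 fold change of *Spp1* from −0.33 to 2.33.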

How the results depend on the processing

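The fold change of *Spp1* lay between −6.40 and 3.70 over 17 alternatives, above 0 in 6 and below 0 in 11, each within 1 SD of the libraries. Of the 10 genes, *Ctsk* kept its sign in all 17, and the other 9 changed sign in at least 1. *Mmp13* moved beyond the spread without both WT1 and dyW1 (−3.18), and *Acp5* did under quantile normalization (0.87) and voom (−4.16). The 10 genes had 2 calls lower without dyW1, beside 7.76% of all tested genes, and 0 in each other fit. Leave-one-out fits thus gave 0 to 2. Of the 4 lists, the 2 genes called lower became 5 at an adjusted *P*-value under 0.05, with 2 called higher (*Cd44* and *Col1a2*). They became 0 with a pseudocount of 10, a mean of at least 50, quantile normalization, the same total, or without WT1 and dyW1 or WT3 and dyW1 together. Those fits called 2 of all tested genes lower with quantile normalization and 0 in the others. Leave-one-out fits gave 0 to 7, with 0 without WT1, WT2, WT4 or dyW2 and 7 without dyW1 or without the library labelled dyW3. Over all tested genes, 4606 of 24804 were called lower without WT1 and 0 without WT2, WT4 or dyW2. There were 2090 of 26945 without dyW1 and 6698 of 25971 without the library labelled dyW3. The cause was not tested.

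Quantile normalization moved the median log2 fold change of all tested genes from −1.99 to 0.06 and the same total moved it to −0.98. The WT and dyW libraries share numbers 1 to 3. Deviations of same-numbered libraries correlated at 0.147, −0.049 and −0.088, and those of other pairs at −0.122 to 0.225. Whether the numbers pair the libraries cannot be told from these values, since libraries also differed in their mixture of tissues. With a replicate block, 0 list genes were called lower, beside 1 of all 25791 tested genes, and *Spp1* was at −1.65. The planned quasi-likelihood tests on recovered reads, with the deposited scaling and with TMM, were not run. Limma voom on those reads called 3 list genes lower and 0 higher, beside 6079 and 5 of all 25791 tested genes. Depth limits the WT values, where 1 read was worth up to 5.33 normalized counts.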
